A study of Mus musculus with 9 samples.

Results

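The EGF receptor family and its ligands were followed through 10 genes of the 55487 in the deposited tables: the receptors Egfr, Erbb2 and Erbb3 and the ligand genes Tgfa, Areg, Epgn, Hbegf, Btc, Ereg and Nrg1. They were taken by gene symbol, and each symbol named 1 row. All libraries came from PT-22 cells, 1 line of mouse kidney proximal tubule that is labelled Pax2-/-, Pax8fl/fl, Rosa-CreERT2 and Pax8-pTRIPZ, grown in medium with 3% FBS. The tamoxifen-activated Cre of this line can therefore remove its own Pax8, and an inducible Pax8 vector is present in every group, untreated cells included. Day 0 cells were untreated. Day 6 cells had received 4-hydroxytamoxifen at 1 uM, for 2 days by the treatment protocol, while the series design speaks of 6 days of depletion. Day 12 cells had then received doxycycline at 1 ug/ml every 2 days for another 6 days. Each group had 3 libraries of polyadenylated RNA (A, B and C), and the labels do not say that these were separate cultures, so p-values measure the spread between libraries, which may be technical. Later untreated, vehicle or doxycycline-free cells were not analysed here, so time in culture, each drug and PAX8 cannot be told apart.

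EGF receptors are receptor tyrosine kinases that signal as dimers. EGFR binds TGFA, AREG and EPGN, which have no other known receptor in the family, and it shares HBEGF, BTC and EREG with ERBB4. NRG1 binds ERBB3 and ERBB4, while ERBB2 has no known ligand and serves as the preferred dimer partner. The ligands are made as membrane-spanning precursors and released by ADAM proteases. In kidney tubule cells EGFR signalling is known for its part in repair after injury and in fibrosis.

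The libraries held 56398623 to 86767334 counts, so that a single count equals 0.01195 to 0.01721 CPM (counts relative to library size, with TMM factors). Whole-gene counts of Pax8, the targeted gene, were not lower after 4-hydroxytamoxifen. Their mean was 291 ± 1.67 CPM in untreated cells, 404.7 ± 5.87 CPM on day 6 and 495.6 ± 7.79 CPM on day 12 (SD, n = 3 each). The sources used here do not say which part of Pax8 is floxed, so these counts do not show whether it was deleted. Whether reads from the inducible Pax8 vector are among them was not tested. Pax2, which the line is labelled to lack, had counts on every day (31.91 ± 2.36, 46.94 ± 3.23 and 52.28 ± 3.19 CPM) and rose at day 6 against day 0 (log2 fold change 0.56, adjusted p = 8.64e-07, edgeR); which part of the gene was deleted is not given in the sources used here, so these counts do not check the label. Directions below are therefore differences between labelled days, not a response to a measured loss of Pax8 RNA. Of 15 proximal tubule markers, 6 reached a mean of 1 TPM (transcript abundance scaled for length and depth), and the defining transporters Slc34a1, Slc5a12 and Slc22a6 were at 0 counts in every library. Markers of other cells differed between the days too. Summed TPM of 6 epithelial markers was 116 to 123 at day 0, 65.6 to 69.1 at day 6 and 125 to 133 at day 12, a course set by Cldn1 (mean 69.4, 14.5 and 73.2 TPM) and shared by Epcam, while Tjp1 (38.1, 45.6 and 45.2) and Krt8 (0.947, 1.62 and 2.34) were higher at day 6 than at day 0. Summed TPM of 7 stromal markers was 4.97 to 5.15, 2.24 to 2.41 and 7.31 to 8.46 in the same order; Dcn (4.3, 0.4 and 5.26) carried the lower sum at day 6, while Pdgfrb (0.02, 0.64 and 0.46), Col1a1 (0.713, 0.943 and 1.78) and Col3a1 (0, 0.25 and 0.423) were higher at day 6 than at day 0. Of 5 podocyte markers Podxl and Synpo reached 1 TPM (summed 130 to 139, 84.4 to 88 and 126 to 139). Of 6 immune markers Cd68 and Csf1r did (32 to 36, 24.2 to 27.3 and 28.8 to 32.1). Csf1r (12.1, 3.85 and 7.41) carried the lower immune sum at day 6, while Cd68 (21.5, 21.9 and 22.5) did not fall. Of 6 loop and distal tubule markers Trpm6 reached 1 TPM (3.55 to 3.62, 14.2 to 15.4 and 11.5 to 13.3). The 5 endothelial markers summed to at most 0.21 TPM and the 6 collecting duct markers to at most 1.08. The part of these differences in the results was not tested, and in bulk RNA fewer cells of a type and less RNA per cell cannot be told apart.

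Of the 10 genes, 8 passed the filter on low counts; Ereg had no count in any library and Epgn had 20 in all. By day 6 the family had split: Tgfa was 2.14-fold higher and Erbb2 was slightly higher, while Egfr, Nrg1, Hbegf and Erbb3 were lower than at day 0. That made 2 genes higher and 4 lower of the 8 tested by edgeR's quasi-likelihood test, where 64.9% of all 16353 genes tested were called in either direction, 33.5% higher and 31.4% lower. Their median log2 fold change was −0.268, beside 0.0224 over all genes tested. Between day 12 and day 6, Hbegf, Areg and Btc rose and Erbb2 and Nrg1 fell, with 45.3% of all genes called, 22.6% higher and 22.7% lower; the members' median was 0.029, beside 0.00836 for all genes. Between day 12 and day 0, Tgfa, Areg and Hbegf were higher and Egfr, Nrg1 and Erbb3 lower, with 66.4% of all genes called, 34.7% higher and 31.7% lower, and the medians were 0.1 for the members and 0.0252 for all genes. These shares of members are near those of all genes, so the counts show nothing particular to the family. The day 6 comparison and the comparison of day 12 with day 0 share their day 0 libraries, and those of day 6 with day 0 and of day 12 with day 6 share the day 6 libraries.

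**Figure D1:**
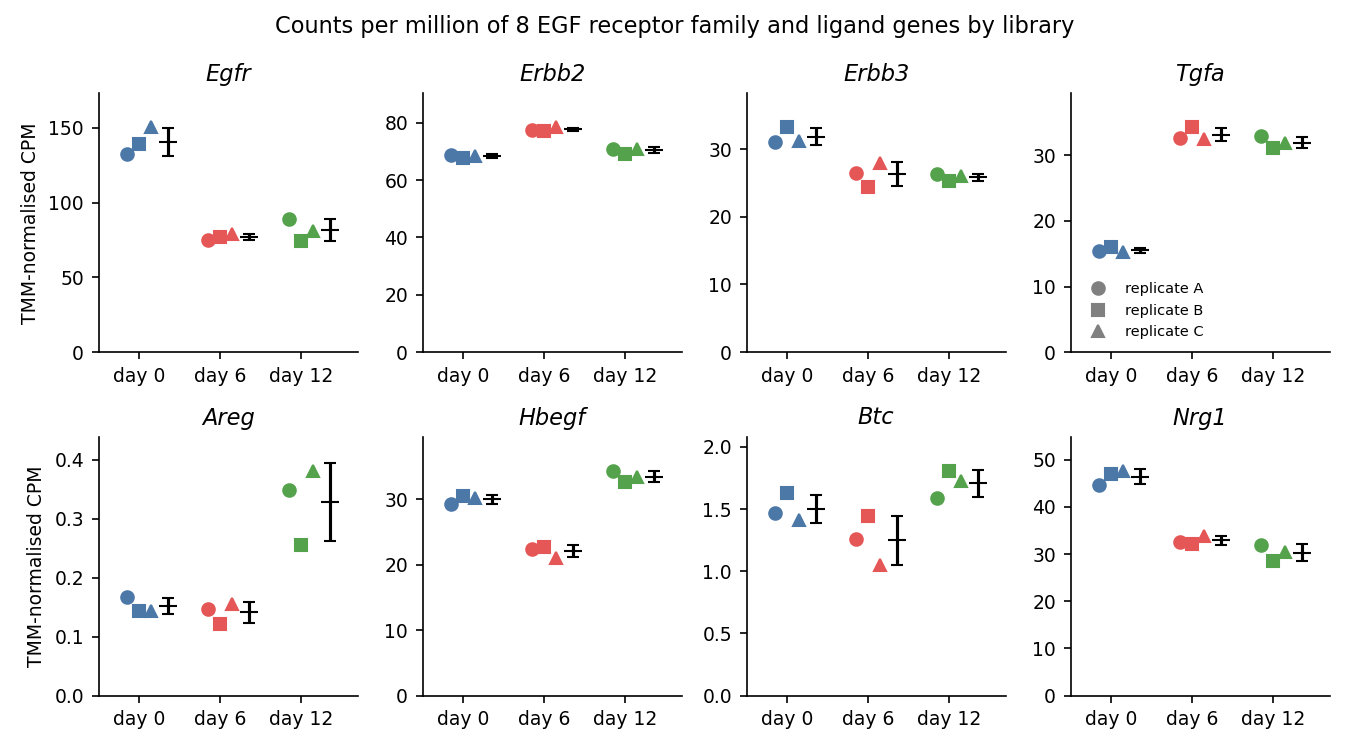
TMM-scaled CPM of the 8 tested genes in each of the 9 libraries (points, one shape per replicate letter) with the mean and SD of each day (black); every panel has its own vertical axis. Tgfa lies at 32.43 to 34.29 CPM at day 6, above 15.23 to 16 CPM at day 0, while Egfr lies at 74.85 to 79.2 CPM at day 6, below 132.3 to 150.5 CPM at day 0.

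Egfr, the receptor for most of these ligands (ENSMUSG00000020122, GRCm38 chr11:16752203-16918158, plus strand), showed the largest fall of the 8 tested genes. It had 132.3, 139.3 and 150.5 CPM in the day 0 libraries A, B and C, 74.85, 77.37 and 79.2 CPM at day 6, and 89.09, 74.23 and 81.33 CPM at day 12. All later libraries were below all day 0 libraries, and the day 6 and day 12 values overlapped. The log2 fold change for day 6 against day 0 was −0.87 ± 0.057 (SE), a level 1.82-fold lower (adjusted p = 2.46e-09, edgeR, Benjamini-Hochberg over all genes tested). It was still 1.72-fold lower at day 12 than at day 0 (log2 fold change −0.79 ± 0.057, adjusted p = 9.11e-09). Between day 12 and day 6 the count fit gave 0.081 ± 0.058 (adjusted p = 0.278), which did not pass the threshold; without day 12 replicate B it was 0.15 (adjusted p = 0.0324).

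The deposited TPM gave Egfr a different picture at day 12. Egfr had 23.16, 24.59 and 24.63 TPM at day 0, 12.86, 13.17 and 13.09 at day 6, and 22.68, 15.42 and 16.51 at day 12, so that the 3 day 12 libraries lay above all day 6 libraries and replicate A came close to the untreated cells. On the log2(TPM + 1) scale the difference of day 12 from day 6 was 0.43 (limma, adjusted p = 0.00886), where the median of all genes tested was itself 0.16. Where TPM are made from the same counts, the ratio of a gene's count to its TPM follows the transcript length used for it. Divided by the library's median gene, this implied length for Egfr was 3.284, 3.278 and 3.502 at day 0, 3.449, 3.463 and 3.611 at day 6, and 2.747, 3.194 and 3.421 at day 12. Its log2 change for day 12 against day 6 was −0.17, outside the 5th to 95th percentile over 11708 well-counted genes (−0.095 to 0.093), and day 12 replicate A had the lowest value of the 9 libraries. Nrg1 lay at −0.10 on the same measure, just outside that range, and Erbb2, Erbb3, Tgfa, Hbegf and Btc lay between −0.059 and −0.004. The annotation lists 5 Egfr transcripts of 446 to 10208 bases, and whether their proportions differed was not tested.

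**Figure D2:**
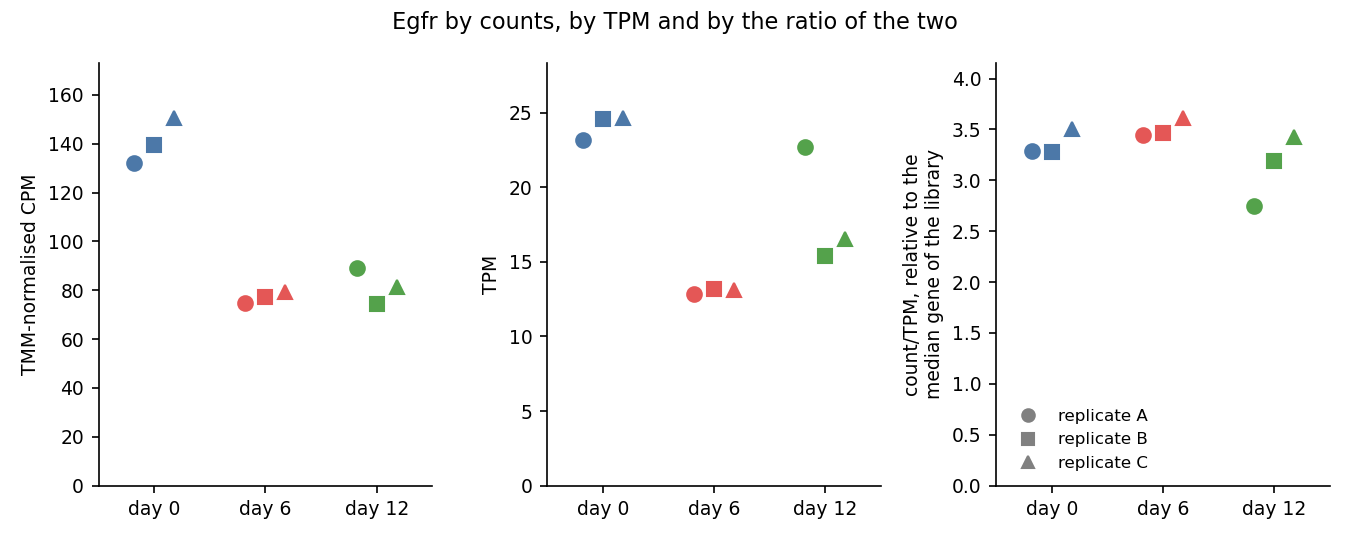
Egfr in each library on 3 scales by day: CPM from counts, TPM, and the implied length relative to the library's median gene. CPM at day 12 overlaps day 6, TPM at day 12 lies above day 6, and day 12 replicate A has the lowest implied length, 2.747.

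Erbb2 (ENSMUSG00000062312, chr11:98412470-98437716, plus strand), the dimer partner, differed little between the days on counts. It had 68.88, 67.77 and 68.54 CPM at day 0, 77.34, 77.22 and 78.44 at day 6, and 71.01, 69.15 and 70.95 at day 12. Libraries of a day lay within 2 CPM of each other, and the days did not overlap. Erbb2 was 1.14-fold higher at day 6 than at day 0 (log2 fold change 0.18 ± 0.028, adjusted p = 3.25e-05) and 1.1-fold lower at day 12 than at day 6 (−0.14 ± 0.028, adjusted p = 0.000743). For day 12 against day 0 it gave 0.041 ± 0.028 (adjusted p = 0.215), which passed the threshold with upper-quartile factors (0.076, adjusted p = 0.0222) and on log2(TPM + 1) (0.29, adjusted p = 7.48e-05), where the median of all genes was 0.186. Its direction between day 12 and day 6 depended on the scale: on log2(TPM + 1) it was 0.068, where the median of all genes was 0.164.

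Erbb3 (ENSMUSG00000018166, chr10:128567523-128589652, minus strand), a neuregulin receptor with a weak kinase that signals through its partner, fell modestly and stayed there. It had 31.07, 33.24 and 31.27 CPM at day 0, 26.46, 24.43 and 27.99 at day 6, and 26.27, 25.25 and 25.99 at day 12. All later libraries lay below all untreated ones. It was 1.21-fold lower at day 6 than at day 0 (log2 fold change −0.28 ± 0.049, adjusted p = 0.00013) and 1.23-fold lower at day 12 than at day 0 (−0.30 ± 0.049, adjusted p = 6.05e-05), and day 12 against day 6 gave −0.023 ± 0.050 (adjusted p = 0.739). On log2(TPM + 1) the difference of day 12 from day 0 was −0.03 and was not called, where the median of all genes was 0.186.

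Tgfa, a ligand of EGFR made by many epithelia (ENSMUSG00000029999, chr6:86195223-86275719, plus strand), differed most of the 8 tested genes between day 6 and day 0. It had 15.39, 16 and 15.23 CPM at day 0, 32.72, 34.29 and 32.43 at day 6, and 32.9, 31.13 and 31.82 at day 12. Every later library lay far above every untreated one. It was 2.14-fold higher at day 6 than at day 0 (log2 fold change 1.10 ± 0.042, adjusted p = 3.98e-12) and 2.06-fold higher at day 12 than at day 0 (1.04 ± 0.042, adjusted p = 1.01e-11). Between day 12 and day 6 the difference was −0.054 ± 0.040 (adjusted p = 0.299).

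Areg, another EGFR ligand and a known target of YAP and of cAMP signalling (ENSMUSG00000029378, chr5:91139599-91148432, plus strand), was scarce and rose late. It had 14, 9 and 10 counts at day 0, 10, 9 and 9 at day 6, and 27, 19 and 23 at day 12, or 0.1518 ± 0.0134, 0.1414 ± 0.0176 and 0.3282 ± 0.0658 CPM (SD, n = 3 each). All day 12 libraries lay above all others. It was 2.31-fold higher at day 12 than at day 6 (log2 fold change 1.21 ± 0.34, adjusted p = 0.00851) and 2.13-fold higher at day 12 than at day 0 (1.09 ± 0.33, adjusted p = 0.00829), and day 6 against day 0 gave −0.12 ± 0.37 (adjusted p = 0.799). With counts this low the calls depended on the tool: DESeq2 gave an adjusted p of 0.0539 and 0.0634 for the same 2 differences. Epgn, an EGFR ligand of skin (ENSMUSG00000035020, chr5:91027464-91035215, plus strand), had 2, 1 and 2 counts at day 0, 6, 0 and 2 at day 6, and 5, 1 and 1 at day 12, too few to compare.

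The promoters of Egfr, Tgfa and Areg are shown because these 3 had the largest log2 fold changes of the 8 tested genes, in opposite directions and at different days. Each runs from 250 bases before the start of the gene to 50 after it, 5′ to 3′ on the strand of the gene, from RefSeq on GRCm38.p6. Capitals mark the GC box GGGCGG, the cAMP response element TGACGTCA and the TATA box TATAAA on either strand.
Egfr promoter, chr11:16751953-16752252, plus strand: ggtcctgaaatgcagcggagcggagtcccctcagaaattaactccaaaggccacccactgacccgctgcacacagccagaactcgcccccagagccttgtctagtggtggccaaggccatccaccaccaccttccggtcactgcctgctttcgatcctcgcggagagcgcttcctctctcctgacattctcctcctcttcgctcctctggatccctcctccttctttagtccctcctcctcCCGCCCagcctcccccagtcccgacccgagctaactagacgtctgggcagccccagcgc
Tgfa promoter, chr6:86194972-86195271, plus strand: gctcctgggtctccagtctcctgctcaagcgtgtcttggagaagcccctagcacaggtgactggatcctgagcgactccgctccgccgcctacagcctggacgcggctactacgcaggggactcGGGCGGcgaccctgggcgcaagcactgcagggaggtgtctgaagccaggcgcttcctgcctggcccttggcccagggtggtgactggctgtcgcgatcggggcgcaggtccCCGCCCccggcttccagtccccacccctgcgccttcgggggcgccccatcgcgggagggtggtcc
Areg promoter, chr5:91139349-91139648, plus strand: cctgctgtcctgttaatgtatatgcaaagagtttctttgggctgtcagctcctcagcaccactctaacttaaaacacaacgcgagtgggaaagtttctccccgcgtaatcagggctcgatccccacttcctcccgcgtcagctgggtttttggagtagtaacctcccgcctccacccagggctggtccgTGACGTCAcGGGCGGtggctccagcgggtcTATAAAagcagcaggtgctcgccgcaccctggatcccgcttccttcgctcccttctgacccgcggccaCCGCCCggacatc
The Egfr window is GC-rich (62.3%) and holds a GC box on the other strand beginning 9 bases before the start, and the Tgfa window (70.7% GC) holds a GC box 126 bases before it and another on the other strand 15 bases before it. The Areg window (59.3% GC) has a cAMP response element 61 bases before the start, a GC box 52 bases before it, a TATA box 31 bases before it and a second GC box, on the other strand, 37 bases after it, with no overlap between them. Among all 32851 promoters of the same length, 35.7% held the GC box, 13.6% the TATA box and 1.79% the cAMP response element, and the median GC content was 52.7%. The AP-1 motif TGANTCA, found in 7.81% of all promoters, was in none of the 6 family promoters in the table (Egfr, Erbb2, Tgfa, Areg, Epgn and Btc). Epgn held a TATA box 86 bases before the RefSeq start of its window (chr5:91027267-91027566), which is not the gene start given above. Erbb2 and Btc held none of the 4 motifs. These are matches of letters, not measured sites.

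**Figure D3:**
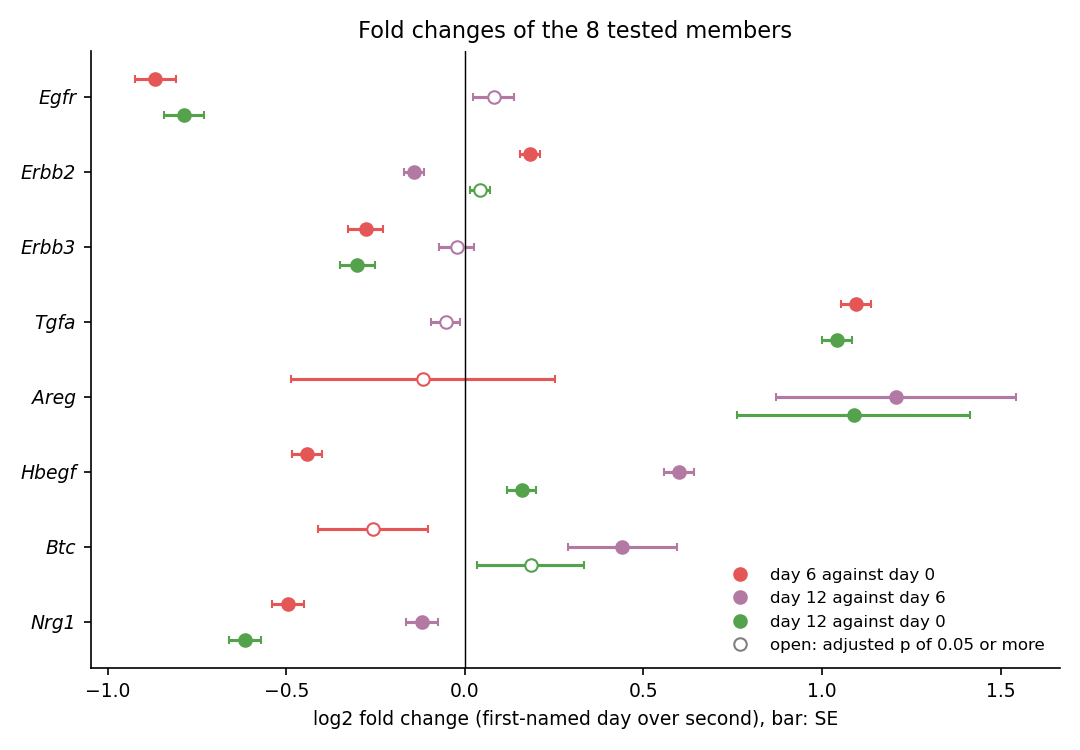
Log2 fold changes with their SE (bars) from edgeR for the 8 genes tested, in 3 comparisons of days by colour; filled points had an adjusted p under 0.05 and open points did not. For day 6 against day 0 Tgfa stands highest at 1.10 and Egfr lowest at −0.87, and Areg has the longest SE bars.

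Hbegf, a ligand of EGFR and ERBB4 that tubule cells make after injury (ENSMUSG00000024486, chr18:36504927-36515805, minus strand), fell and then rose past its starting level. It had 29.25, 30.49 and 30.21 CPM at day 0, 22.4, 22.72 and 21.02 at day 6, and 34.35, 32.62 and 33.4 at day 12. No library of a day overlapped another day. Hbegf was 1.36-fold lower at day 6 than at day 0 (log2 fold change −0.44 ± 0.042, adjusted p = 1.79e-07), 1.52-fold higher at day 12 than at day 6 (0.60 ± 0.042, adjusted p = 3.33e-08) and 1.12-fold higher at day 12 than at day 0 (0.16 ± 0.041, adjusted p = 0.00286).

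Btc, which also binds both receptors (ENSMUSG00000082361, chr5:91357261-91402994, minus strand), was low throughout. It had 1.469, 1.63 and 1.413 CPM at day 0, 1.256, 1.444 and 1.05 at day 6, and 1.59, 1.809 and 1.724 at day 12. The day 12 libraries lay above all day 6 libraries, and day 0 overlapped both. It was 1.36-fold higher at day 12 than at day 6 (log2 fold change 0.44 ± 0.15, adjusted p = 0.0284), while day 6 differed from day 0 by −0.26 ± 0.15 (adjusted p = 0.159) and day 12 from day 0 by 0.18 ± 0.15 (adjusted p = 0.291). It missed the threshold when day 6 library A or C was left out (adjusted p = 0.0671 and 0.114), when day 12 library B or C was left out (0.0896 and 0.0654) and in DESeq2 (0.0805). Ereg (ENSMUSG00000029377, chr5:91074622-91093646, plus strand), the remaining ligand of this kind, had 0 counts in all 9 libraries, which allows at most 0.0358 to 0.0516 CPM per library at 3 counts, a limit for counting error only. Epgn, Ereg, Areg and Btc are neighbours on chromosome 5, and of the 4 Areg and Btc were counted often enough to be tested.

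Nrg1, the neuregulin ligand of ERBB3 and ERBB4 (ENSMUSG00000062991, chr8:31814551-32884029, minus strand), fell by day 6 and did not come back. It had 44.54, 46.96 and 47.66 CPM at day 0, 32.65, 32.18 and 33.89 at day 6, and 31.99, 28.43 and 30.38 at day 12. All 6 later libraries lay below all untreated ones, and the day 12 libraries lay below all day 6 libraries. It was 1.41-fold lower at day 6 than at day 0 (log2 fold change −0.50 ± 0.045, adjusted p = 1.09e-07) and 1.53-fold lower at day 12 than at day 0 (−0.62 ± 0.045, adjusted p = 1.07e-08). The further difference of day 12 from day 6 was −0.12 ± 0.046 (adjusted p = 0.0462). It was not called without day 0 replicate B, any 1 of the day 6 replicates or day 12 replicate B or C (adjusted p from 0.0569 to 0.213). Nor was it called with upper-quartile factors (−0.081, adjusted p = 0.163) or with a replicate block (adjusted p = 0.053). On log2(TPM + 1) it was 0.18, where the median of all genes was 0.164. The annotation gives Nrg1 18 transcripts, and counts here are summed over them. Erbb2, Tgfa, Ereg and Nrg1 share 9, 118, 141 and 482 exon bases with a gene on the other strand, and whether counting used strand is not given in the sources used here.

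TPM is per transcript length, so it lets the genes be ranked within a library. At day 0 Egfr was highest in all 3 libraries; Nrg1 (18.9 to 21.52 TPM), Erbb2 (19.24 to 19.75) and Hbegf (17.96 to 19.12) followed, and the range of Nrg1 overlapped both others. Erbb3 (6.98 to 7.54 TPM) came before Tgfa (4.64 to 5.14), and Btc and Areg stayed under 1 TPM. At day 6 Erbb2 led with 22.77 to 22.96 TPM, Hbegf (13.38 to 14.51), Nrg1 (13.63 to 14.12) and Egfr (12.86 to 13.17) followed, and Tgfa (10.31 to 10.76) had passed Erbb3 (5.66 to 6.57). At day 12 Hbegf (23.37 to 25.92 TPM) and Erbb2 (23.17 to 24.46) shared the top with overlapping ranges, then came Egfr (15.42 to 22.68) and Nrg1 (13.86 to 17.52), which overlapped too, and Tgfa (11.15 to 12.27). Erbb3 (6.6 to 7.26 TPM) stayed the lowest of the 3 receptors among the members on every day. Erbb4, a receptor outside the members, averaged 8.1 TPM at day 0, 1.777 at day 6 and 2.58 at day 12.

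The make-up of the ligand RNA changed accordingly. Nrg1 gave 44.4% to 46.8% of the summed ligand TPM at day 0, 34.9% to 36.6% at day 6 and 27.8% to 30.5% at day 12, so its share was lower at each later day with no overlap. Tgfa gave 10.1% to 11.3%, 26.4% to 26.7% and 21.3% to 22.4%, and Hbegf 40.7% to 42.2%, 34.7% to 36.4% and 45.1% to 46.9% in the same order. Untreated cells therefore held mostly Nrg1 and Hbegf RNA, day 6 cells a mixture in which Tgfa had a larger share, and day 12 cells had Hbegf as the largest single share. Among the 3 receptors, Egfr made up 46.8% to 48.4% at day 0, 30.8% to 31.5% at day 6 and 34.1% to 41.7% at day 12, and Erbb2 37.8% to 39.1%, 53.7% to 54.9% and 45% to 51.3%. The ratio of Egfr to Erbb2 TPM was 1.2 to 1.28 at day 0, 0.565 to 0.574 at day 6 and 0.666 to 0.927 at day 12. On TPM, the more abundant of these 2 receptor RNAs thus differed between untreated and later cells. The ratio of their counts, which is not scaled for length, was 1.92 to 2.2, 0.968 to 1.01 and 1.07 to 1.25 in the same order. Summed TPM of the ligands was 44.7 ± 1.88, 39.3 ± 0.85 and 54.3 ± 3.98, and that of these 3 receptors 50.8 ± 1.19, 42 ± 0.401 and 49.2 ± 4.71 (SD, n = 3 each). Erbb4 (mean 8.1, 1.777 and 2.58 TPM by day) is not in the receptor sum or shares. At day 12 the receptor sum ran from 45.19 to 54.4 TPM, highest in replicate A, where Egfr had its lowest implied length. The day 12 share of Egfr and its TPM ratio to Erbb2 were also highest in that library (41.7% and 0.927). The day 12 sums stand beside a lower mitochondrially encoded share of counts, 2.1% to 3.96% at day 12 against 6.66% to 7.18% on the earlier days, and its part in them was not tested; shares and ratios within a library do not depend on it.

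**Figure D4:**
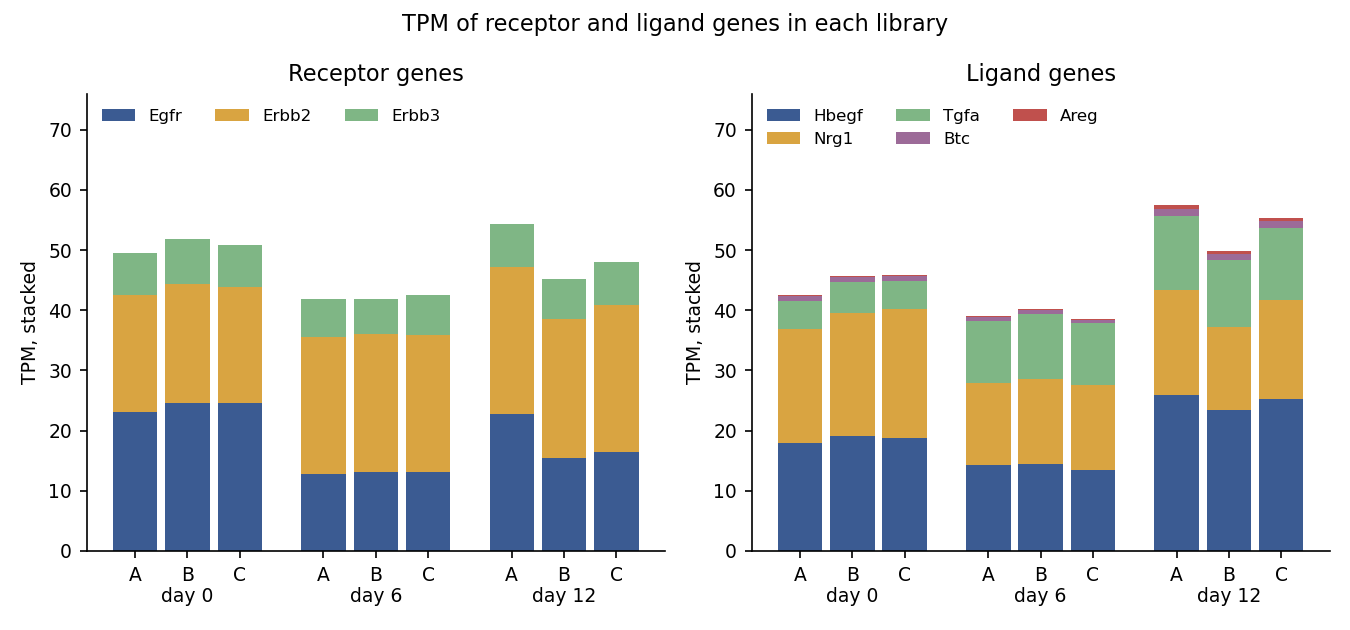
Stacked bars of TPM in each of the 9 libraries by day, for the 3 receptor genes in one panel and 5 ligand genes in the other. Nrg1 is the largest ligand segment in the day 0 libraries and Hbegf in the day 12 libraries, and Erbb2 is larger than Egfr in every day 6 and day 12 library.

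Likeness of pattern was taken as Pearson's r of log2 CPM over the 9 libraries, among 10278 genes searched. The genes most like Egfr in pattern were Lrp2, the endocytic receptor megalin (r = 0.9935), Glis3, a transcription factor (0.9933), and Agfg1 (0.9929). For Tgfa they were Clip2, a microtubule-binding protein (0.999), Ctnnb1, which encodes beta-catenin (0.9987), and Hdac5, a histone deacetylase (0.9987). In all, 89 genes had r above 0.98 with Egfr and 641 with Tgfa. These values describe 3 groups of libraries that share their day and treatment, with a large share of all genes differing between them. They do not measure the size of a change. The log2 fold changes for day 6 against day 0 were −2.74 for Lrp2, −0.85 for Glis3 and −0.46 for Agfg1, beside −0.87 for Egfr. For Clip2, Ctnnb1 and Hdac5 they were 0.93, 1.39 and 1.14, beside 1.10 for Tgfa.

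Beyond the 10 genes, the family's other tested genes were Erbb4, Egf and Nrg4. Erbb4, a receptor for NRG1, HBEGF, BTC and EREG, fell further than any of the 10: it had 67.42, 71.96 and 77.18 CPM at day 0, 14.15, 15.6 and 16.35 at day 6, and 20.02, 16.6 and 19.72 at day 12. It was 4.7-fold lower at day 6 than at day 0 (log2 fold change −2.23 ± 0.071, adjusted p = 3.99e-13), rose slightly at day 12 against day 6 (0.29 ± 0.075, adjusted p = 0.00571) and remained 3.85-fold below day 0 (−1.94 ± 0.069, adjusted p = 2.23e-12). Egf averaged 2.677, 2.671 and 2.444 CPM by day and was called in no comparison. Nrg4 was called for day 12 against day 0 alone (log2 fold change 0.64 ± 0.19, adjusted p = 0.00718). Nrg2, with 22 counts, and Nrg3, with none, were not tested.

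The gene lists from here on were chosen with earlier results of these data known. Their counts beside the shares of all genes are thus a description, not a test. Genes of ligand processing, among them the inhibitor Timp3, mostly rose by day 6. Of 9 tested, 7 were higher and 2 lower at day 6 than at day 0 (median log2 fold change 0.263), beside 33.5% and 31.4% of all genes tested. At day 12 against day 6, 1 was higher and 4 lower (median −0.049), beside 22.6% and 22.7% of all genes, and on log2(TPM + 1) 5 were higher and 0 lower. Rhbdf1, an iRhom that carries the sheddase ADAM17 to the surface, averaged 53.37 ± 2 CPM at day 6 against 29.76 ± 1.42 at day 0 (log2 fold change 0.84), Frmd8, which stabilises that complex, gave 0.48, and Timp3, which inhibits ADAM17, gave 0.42. Adam17 itself was 1.18-fold higher at day 6 than at day 0 (0.23 ± 0.033, adjusted p = 1.64e-05). Of the other membrane proteases tested, Adam10 was higher (0.19), while Adam9 (−0.53) and Adam15 (−0.07) were lower. Furin, a pro-protein convertase, and Rhbdf2 had risen at day 6 and were lower at day 12 than at day 6 (−0.24 and −0.23). These 2 calls were lost on log2(TPM + 1) (−0.04 and −0.011), where the median of all genes was 0.164.

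Adaptors and kinases that act next to the receptors moved both ways. Of 21 tested, 10 were higher and 7 lower at day 6 than at day 0 (median 0.073), beside 33.5% and 31.4% of all genes tested. At day 12 against day 6, 1 was higher and 11 lower (median −0.078), beside 22.6% and 22.7% of all genes, and on log2(TPM + 1) 11 were higher and 2 lower. Stat3, a transcription factor that EGFR can activate, averaged 155.6 ± 0.398 CPM at day 6 against 79.61 ± 1.22 at day 0 (log2 fold change 0.97), the adaptor Shc1 gave 0.67, Mapk3, which encodes ERK1, gave 0.67, and the kinase subunit Pik3cb gave −0.50. At day 12 the largest differences from day 6 were in Pik3r1 (−0.55) and the adaptor Gab2 (−0.40, and −0.12 without a call on log2(TPM + 1)).

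Genes that restrain the receptor or send it for degradation were split evenly at day 6: of 20 tested, 10 were higher and 9 lower than at day 0 (median 0.015), beside 33.5% and 31.4% of all genes tested. At day 12 against day 6, 2 were higher and 11 lower (median −0.111), beside 22.6% and 22.7% of all genes, and on log2(TPM + 1) 9 were higher and 4 lower. Errfi1, which encodes MIG6, a direct inhibitor of the EGFR kinase, had 152.3, 140.3 and 146.4 CPM at day 0, 66.46, 67.1 and 63.81 at day 6, and 132.3, 142.9 and 137.9 at day 12. It was 2.22-fold lower at day 6 than at day 0 (log2 fold change −1.15 ± 0.038, adjusted p = 6.66e-13) and 2.09-fold higher at day 12 than at day 6 (1.07 ± 0.038, adjusted p = 3.09e-11); at day 12 it differed from day 0 by −0.088 (adjusted p = 0.0469), a call lost with a replicate block (adjusted p = 0.065). Sh3kbp1, an adaptor for receptor uptake, averaged 43.84 ± 1.95 CPM at day 6 against 6.474 ± 0.211 at day 0, 6.76-fold higher, and was 1.46-fold lower at day 12 than at day 6. Socs5 (2.19-fold) and Lrig1 (1.74-fold), both negative regulators of EGFR, were higher at day 6 than at day 0.

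Genes listed as responding to ERK or feeding back on it were mostly higher on both later days than at day 0. This list too was chosen with earlier results known, so its counts only describe it. Of 20 tested, 13 were higher and 4 lower at day 6 than at day 0 (median 0.486), beside 33.5% and 31.4% of all genes. At day 12 against day 6, 10 were higher and 6 lower (median 0.252), beside 22.6% and 22.7% of all genes. At day 12 against day 0, 14 were higher and 2 lower (median 0.555), beside 34.7% and 31.7% of all genes. Dusp6, a phosphatase specific for ERK, averaged 84.96 ± 3.89 CPM at day 6 against 20.33 ± 2.36 at day 0 (4.16-fold), and the related phosphatases Dusp4 and Dusp5 gave 2.87-fold and 2.09-fold. Ccnd1, which encodes cyclin D1, was 1.98-fold higher at day 6. The 4 genes lower at day 6 than at day 0 were Myc (log2 fold change −0.44), Spry1 (−0.30), Ier3 (−0.29) and Phlda1 (−0.19). Fos averaged 7.055 ± 0.759 CPM at day 12 against 3.405 ± 0.157 at day 6 (2.07-fold) and Phlda1 40.04 ± 1.69 against 21.89 ± 1.49 CPM (1.83-fold). For the lists of ligand processing, adaptors and inhibitors, the lean towards lower values at day 12 against day 6 depended on the scale: on log2(TPM + 1) their medians were 0.154, 0.156 and 0.097, where all genes tested had a median of 0.16, while the ERK-responsive list had 0.323.

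**Figure D5:**
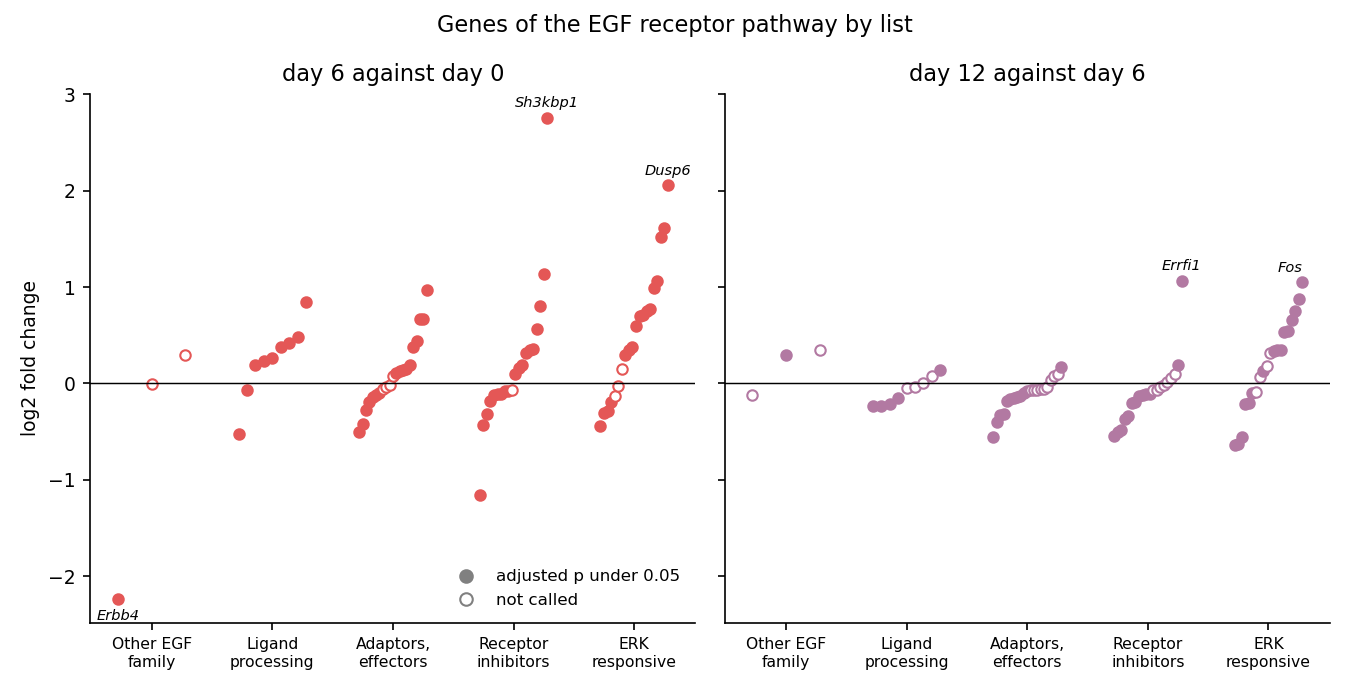
Log2 fold changes from edgeR of every tested gene (points) in the 5 gene lists around the receptors, for day 6 against day 0 and day 12 against day 6, ordered by value within a list; filled points had an adjusted p under 0.05. Sh3kbp1 (2.76) and Dusp6 (2.06) stand highest and Erbb4 (−2.23) lowest for day 6 against day 0, and Errfi1 lies at −1.15 for day 6 against day 0 and 1.07 for day 12 against day 6.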

How the data were processed

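For 9 libraries the authors gave raw gene counts as whole numbers and, in a second deposited table, TPM. The tools STAR 2.7.8a, RSEM 1.3.3, cutadapt 2.3 and FastQC 0.11.8 and the build GRCm38 are named, per the submitters' processing notes. The step each tool was used for, the counted annotation, its strand setting and filters were not given in the sources used here. Counts from RSEM would be rounded estimates. Of 55491 entries, 4 transgenes (0.00204% to 0.00284% of counts) were left out. The members and gene lists were chosen with earlier results of these data known.

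Counts were filtered with filterByExpr by group (16353 genes left), scaled with TMM factors and compared with edgeR 4.0.16 in R 4.3.3 (two-sided quasi-likelihood F test, 1 fit of 9 libraries, 6 residual degrees of freedom), with Benjamini-Hochberg adjustment over all genes tested and a threshold of 0.05. SE was computed as the absolute log2 fold change over the square root of F. TPM were used for levels between genes and, as log2(TPM + 1), in limma 3.58.1; fold changes there understate low genes. Other alternatives were DESeq2 1.42.0, other scalings, no filter, and leaving out each library. Replicate letters did not pair libraries: over 9 pairs of equal letters, deviations from group means correlated at −0.083 to 0.078. No libraries were alike within sampling noise. Named beside the 10 members were, per list, the 4 genes with the largest called change for day 6 against day 0 and the 2 for day 12 against day 6 (mean CPM of 5 or more), the 3 genes most like Egfr and the 3 most like Tgfa, and Pax8 and Pax2 as a check of the labels. Adam10, Adam15, Adam17, Egf, Nrg2, Nrg3, Nrg4, Myc, Spry1 and Ier3, where named, and the markers were chosen outside that rule. Gene positions came from GENCODE M21 on GRCm38. RefSeq promoters matched 6 of 10 members; Erbb3, Hbegf, Ereg and Nrg1 had none in the table.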

Additional observations from a re-analysis of the deposited data

How the results depend on the processing

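Every member called for day 6 against day 0 kept its direction under the 19 alternatives, with 2 members higher in each; Erbb3 missed the threshold in 1 of them (adjusted p = 0.0535, log2(TPM + 1) without a filter). TPM moved the later comparisons. On log2(TPM + 1), log2(TPM + 0.1) and unfiltered log2(TPM + 1) the median of all genes shifted to 0.164, 0.208 and 0.164 for day 12 against day 6, and 90.1%, 90.1% and 89.5% of calls were higher, beside 50% on counts (60.5% with upper-quartile factors); genes called higher numbered 7998, 7927 and 7394, and lower 878, 873 and 868. For day 12 against day 0 the medians were 0.186 to 0.254 and 81.1% to 81.3% of calls were higher, beside 52.3% on counts, with 8529 genes higher on log2(TPM + 0.1) and 1939, 1965 and 1914 lower. In these fits the difference of day 12 from day 6 turned to 0.068, 0.071 and 0.068 for Erbb2, 0.177, 0.187 and 0.177 for Nrg1, 0.154, 0.157 and 0.154 for Frmd8, 0.032 for Shc1, and 0.145, 0.146 and 0.145 for Mapk3, and Tgfa turned to 0.161 (adjusted p = 0.0458) in the first. That of day 12 from day 0 turned to 0.16, 0.162 and 0.16 for Errfi1 and to 0.053, 0.057 and 0.053 for Pik3r1. The cause was not tested; the day 12 libraries had the lowest mitochondrial share. Members higher at day 12 than at day 6 then numbered 5 on log2(TPM + 1), and 1 in DESeq2; members lower numbered 0 in the 3 TPM fits, 1 with upper-quartile factors, 1 with the replicate block and 1 to 2 when a library was left out. Members higher at day 12 than at day 0 numbered 5 in the 3 TPM fits, where Erbb2 and Btc were called and Erbb3 was not. The replicate block ended the call of Nrg1 for day 12 against day 6 (adjusted p = 0.053) and of Errfi1 for day 12 against day 0 (0.065). Of the members' single results, leaving out 1 library left 205 on the same side of the threshold and moved 10 below and 1 above it. The other alternatives left 214, moved 9 below and 10 above it and turned 7. Depth limits Areg, Epgn and Ereg.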
